A study of Mus musculus with 6 samples.

Results

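Genes of the neuronal cytoskeleton and of neurite growth were examined in MN9D cells that overexpressed Lmx1a. The members were taken by gene symbol and not by a threshold on their values, as Tubb3, Map2, Mapt, Stmn1, Stmn2, Gap43, Nefl, Ina, Dcx and Vim. They were chosen with earlier results of these data known. All 10 genes, of 17865 named genes, were on the array, represented by 11 of 31769 probes, with 2 probes for Mapt and 1 for each other gene. The probe for Map2 carries the older symbol Mtap2.

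MN9D is a mouse dopaminergic line made by fusing embryonic midbrain neurons with neuroblastoma cells. The cells were transfected with pcDNA3.1(-) into which Lmx1a had been cloned, or with empty pcDNA3.1(-), and both kinds of culture also received pBluescript SKII(+) as carrier DNA. Per the labels, 3 pools of Lmx1a RNA, each from 3 dishes, were each hybridised against the same control pool, taken from 9 dishes, on 2 arrays with the dyes exchanged, giving 6 arrays. The 2 arrays of a pool were averaged, so n = 3, and the ratio of Lmx1a over control was tested against 0. The control pool entered as 1 sample and its own spread is not in any error given here. The labels give neither the share of cells that took up the plasmid nor the hours between transfection and harvest. Whether each pool was transfected on its own is not stated either, and the p-values below reflect differences among these 3 pools and nothing wider. In RNA from whole dishes, fewer cells of a kind and less RNA per cell cannot be told apart.

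Neurites are built on microtubules, polymers of alpha- and beta-tubulin, which proteins such as tau, MAP2 and doublecortin bind and stabilise and which stathmins take apart by sequestering tubulin. Neurofilaments and the related alpha-internexin form the intermediate filaments of axons, while vimentin takes that place in neural progenitors and in many cultured lines. GAP-43 lies under the membrane of the growth cone, where it takes part in the regulation of actin. These genes are therefore often read as markers of how far a neuronal line has differentiated.

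Lmx1a is a LIM homeodomain factor, and such factors bind DNA with a TAAT core. RefSeq's promoter windows on GRCm38.p6, which run from 250 bases before to 50 after a start, held 5 of the 10 members, namely Vim, Ina, Tubb3, Map2 and Dcx. Of all 32851 windows of this length, 58% held TAAT or its reverse complement ATTA, and 5.29% held TAATTA, whose matches are also counted among those of TAAT. Among the members 2 genes held the shorter motif on either strand, Vim and Dcx, and Dcx alone held TAATTA. The 250 bases before the start are shown for Vim (chr2:13574061-13574310, plus strand), which had the highest ratio of the members, for Ina (chr19:47014431-47014680, plus strand), whose ratio differed between dye orientations, and for Tubb3 (chr8:123411303-123411552, plus strand), whose ratio lay close to 0. The site in Dcx is shown within a stretch of 30 bases (chrX:143933241-143933270, minus strand). Capitals mark TAAT or ATTA in the first 3 and TAATTA in Dcx.
Vim: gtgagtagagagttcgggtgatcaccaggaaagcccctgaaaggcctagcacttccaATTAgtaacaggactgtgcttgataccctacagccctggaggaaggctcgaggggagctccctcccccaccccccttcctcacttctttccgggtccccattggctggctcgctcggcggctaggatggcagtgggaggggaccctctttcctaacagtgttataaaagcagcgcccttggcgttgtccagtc
Ina: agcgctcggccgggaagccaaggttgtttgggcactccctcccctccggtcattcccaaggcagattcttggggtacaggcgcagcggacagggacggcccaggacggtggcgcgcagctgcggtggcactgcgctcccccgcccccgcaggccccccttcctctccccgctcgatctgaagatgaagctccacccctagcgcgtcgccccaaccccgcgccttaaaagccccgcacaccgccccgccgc
Tubb3: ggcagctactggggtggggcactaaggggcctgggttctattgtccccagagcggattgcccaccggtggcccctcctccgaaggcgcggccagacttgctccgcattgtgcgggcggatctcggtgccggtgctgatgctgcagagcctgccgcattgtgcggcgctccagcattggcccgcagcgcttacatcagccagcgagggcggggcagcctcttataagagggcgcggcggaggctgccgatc
Dcx: aaaaaaagcatgTAATTAatcataggaggt
The GC content of the whole windows was 59.3% for Vim, 71.7% for Ina, 67.3% for Tubb3 and 77.7% for Map2, against 43% and 44.7% for the 2 overlapping windows of Dcx. A match describes the letters only, and these arrays did not measure binding.

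The transfected gene was read first as a check of the labels. Lmx1a had a log2 ratio of 2.49 ± 0.68 (SD, n = 3) and was positive on 6 of 6 arrays, from 0.93 on the dimmest array to 3.19, with a limma adjusted p of 0.0779. On the dimmest array the control spot of Lmx1a was not above background, and with plain background subtraction the mean was 3.79. Detection required a spot mean above the local background median plus 2 background standard deviations. By this measure 45.2% to 67.9% of probes were detected in either channel of an array, and the lowest shares were on the Cy3 array (Lmx1a RNA in Cy3) of replicate 1. Among markers of dopaminergic cells 5 of 12 were detected on all 6 arrays, Th and Slc18a2 included, while Slc6a3, Pitx3, Foxa2 and Aldh1a1 were detected on none. Of the marker genes of other cell types, 3 of 6 for astrocytes and 3 of 6 for oligodendrocytes were detected on all arrays. So were 2 of 5 for microglia and leukocytes and 2 of 9 for fibroblasts and smooth muscle. Of these genes 0 passed an adjusted p of 0.05. The counts take the brightest probe of each gene, and over all probes 44.9% were detected in either channel on all 6 arrays.

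Which members the arrays could measure differed between probes. The probes for Tubb3, Stmn1, Stmn2, Gap43, Ina and Vim were detected in both channels on 6 of 6 arrays. The probes for Map2, Nefl and Dcx were not well above background in either channel on any array. Their net brightness, the spot mean minus the local background median, lay between 2.33 and 9.28 units for Map2, 1.91 and 7.43 for Nefl and 2.08 and 6.91 for Dcx, so no ratio is given for these 3 genes. MAP2 is a dendritic microtubule protein, neurofilament light the core subunit of neurofilaments, and doublecortin a microtubule protein of migrating young neurons. Their spots do not tell low expression from a probe that hybridises poorly. Mapt, encoding tau, was intermediate, with 1 probe detected in both channels on 4 arrays and the other on 3.

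**Figure D1:**
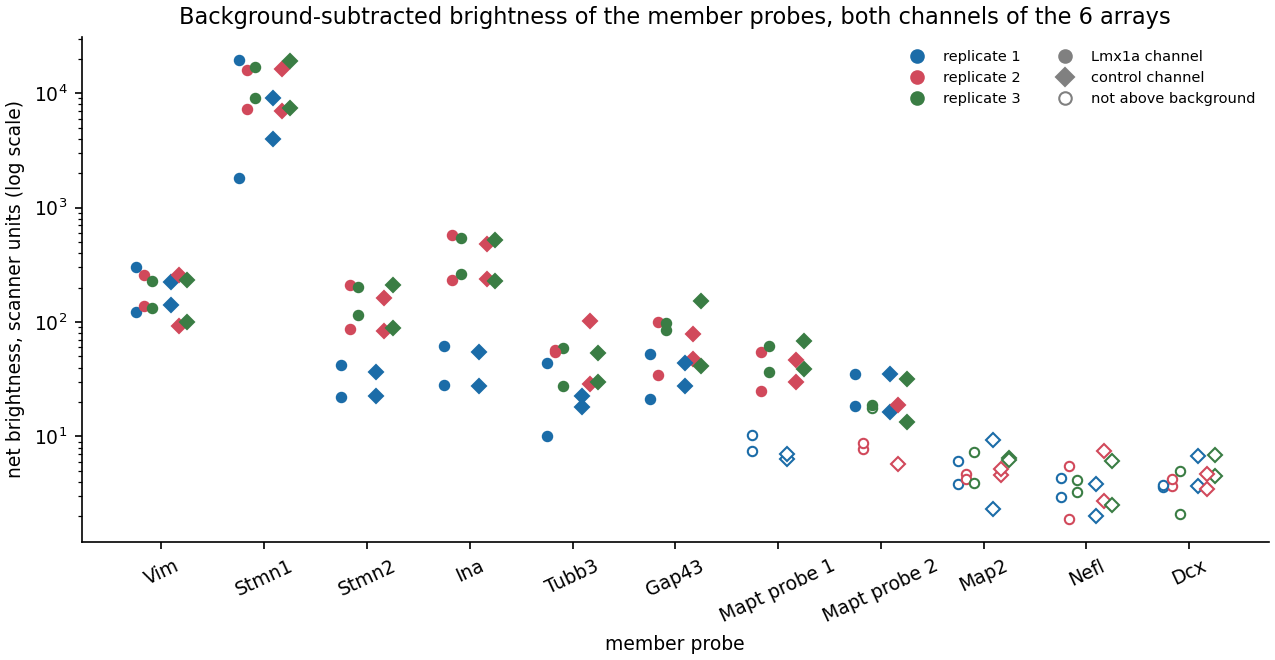
Net brightness in scanner units on a log axis for the 11 member probes, with circles for the Lmx1a channel, diamonds for the control channel, 1 colour per replicate and open symbols for spots not above background. The symbols of Map2, Nefl and Dcx are all open, and the Ina, Stmn2 and first Mapt probes are dimmer on the arrays of replicate 1 in both channels.

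The control channel held the same RNA pool on every array, yet its brightness at single members was not constant. At Ina, encoding alpha-internexin, the control channel read 27.6, 238 and 226 units in Cy3 and 54.3, 481 and 522 in Cy5 for replicates 1, 2 and 3. Both arrays of replicate 1 were thus dim for Ina, and the Lmx1a channel was dim with them, at 61.7 and 28.1 units against 233 to 573 on the other 4. The control channel at Stmn2 read 22.8 and 36.9 units on the arrays of replicate 1 and 82.7 to 209 on the others. At Vim it read 141 and 225 units for replicate 1 and 93.1 to 258 on the others, with no such gap. At Ina and Stmn2 both channels were dim on the same arrays, as the plot of brightness by channel shows.

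Vimentin, the intermediate filament protein of progenitors and cultured cells, had the highest ratio of the members. With Lmx1a RNA in Cy5 the log2 ratio of Vim was 0.10, 0.26 and 0.061 in replicates 1, 2 and 3, and with Lmx1a RNA in Cy3 it was 0.11, 0.12 and 0.083. All 6 arrays were above 0, and replicate 2 in Cy5 stood above the other 5, which lay close together. The mean was 0.12 ± 0.060 (SD, n = 3), or 1.09-fold, with a 95% interval from the limma fit of 0.058 to 0.19. Its limma adjusted p was 0.182 over all probes, so Vim did not pass the threshold of 0.05. A second fit, the replicate block fit, took all 6 arrays with the replicate number as a block and a term for dye. In it the limma adjusted p of Vim was 0.0809. That fit set the correlation between arrays of a pool at 0.068, so the 2 arrays of a pool counted nearly as separate replicates. Intensities carried an added offset of 50, which draws the ratios of dim spots toward 0, and with plain background subtraction instead the ratio of Vim was 0.16, with an interval of -0.0045 to 0.33.

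Stathmin, encoded by Stmn1, is the microtubule-destabilising protein of proliferating cells, and Stmn2 encodes its neuronal relative SCG10, found in growth cones. With Lmx1a RNA in Cy5 Stmn1 gave log2 ratios of 0.14, 0.11 and 0.016 in replicates 1, 2 and 3, and with Lmx1a RNA in Cy3 it gave 0.20, 0.089 and -0.019. Replicate 1 was highest and replicate 3 close to 0 in both orientations, and the 2 orientations of a pool lay close together. The mean of Stmn1 was 0.090 ± 0.086 (SD, n = 3), with a limma adjusted p of 0.387. The Stmn1 spot was among the brightest on the array, with 33 probes brighter, and its ratio depended on how intensity was handled. It was 0.039 with loess within print grids, 0.046 in the authors' deposited table and -0.018 with median centring. Without replicate 1 the ratio of Stmn1 was 0.050, and without replicate 3 it was 0.14.

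Stmn2 gave log2 ratios of -0.019, 0.17 and 0.065 with Lmx1a RNA in Cy5 and 0.068, 0.097 and 0.065 in Cy3, again for replicates 1, 2 and 3. The Cy5 array of replicate 1, where the spot was dim, was alone below 0. The mean of Stmn2 was 0.075 ± 0.056 (SD, n = 3), or 1.05-fold, with a limma adjusted p of 0.332. Without replicate 2 it was 0.045, and with plain subtraction 0.12.

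Alpha-internexin, encoded by Ina, assembles with neurofilament subunits in axons and appears early in neuronal differentiation. With Lmx1a RNA in Cy5 its log2 ratio was 0.083, 0.15 and 0.15, and with Lmx1a RNA in Cy3 it was 0.010, 0.0070 and -0.053. The orientations did not overlap, and the small SD between pools, 0.017 around a mean of 0.058, leaves that split out. The mean was 0.13 in Cy5, with a limma adjusted p of 0.0537, and -0.012 in Cy3. Dye bias of Ina, as Cy5 over Cy3, was 0.070 on the log2 scale with a limma adjusted p of 0.0757, where 6.80% of all probes passed 0.05. The ratio over both orientations had an adjusted p of 0.275.

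**Figure D2:**
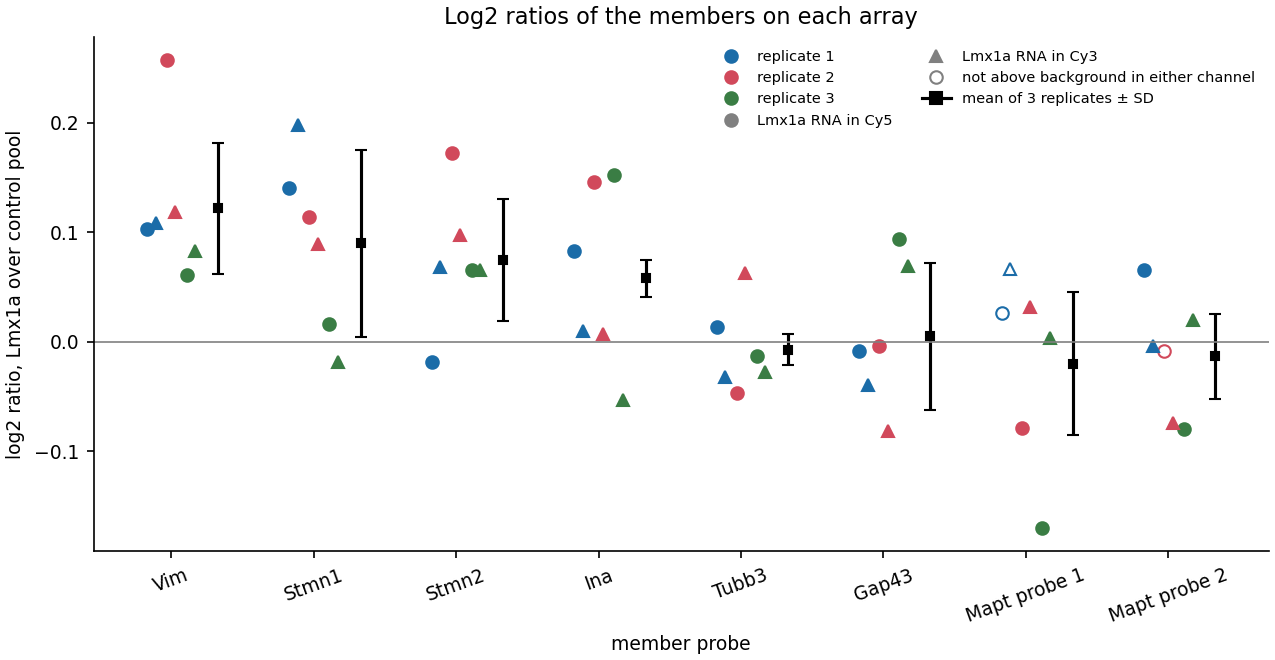
Log2 ratio of Lmx1a over the control pool on each array for the 8 member probes detected on at least 3 arrays, with circles for Lmx1a RNA in Cy5, triangles for Cy3, 1 colour per replicate, open symbols where the spot was not above background in either channel, and black squares for the mean of 3 replicates with its SD. All 6 symbols of Vim lie above 0, those of Ina split by dye, and those of Tubb3 and Gap43 lie on both sides of 0.

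The neuronal beta-tubulin gene Tubb3 and the growth cone gene Gap43 were detected on every array and had means near 0. Tubb3 gave 0.013, -0.047 and -0.013 with Lmx1a RNA in Cy5 and -0.032, 0.063 and -0.028 in Cy3. Its mean was -0.0073 ± 0.014 (SD, n = 3), and the 95% interval of the limma fit ran from -0.048 to 0.033, or 0.967-fold to 1.02-fold. With plain background subtraction that interval was -0.18 to 0.10, or 0.882-fold to 1.07-fold.

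Gap43 gave -0.0090, -0.0040 and 0.094 with Lmx1a RNA in Cy5 and -0.040, -0.082 and 0.069 in Cy3. Replicate 3 was above 0 in both orientations and the other pools below it. The mean of Gap43 was 0.0047 ± 0.067 (SD, n = 3), with a 95% interval of -0.065 to 0.074 and a limma adjusted p of 0.979. Without replicate 3 it was -0.034. With plain background subtraction the 95% interval of Gap43 was -0.21 to 0.20, or 0.863-fold to 1.15-fold.

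The Mapt probes gave -0.020 ± 0.065 and -0.014 ± 0.038 (SD, n = 3), with limma adjusted p of 0.871 and 0.890. On the arrays of replicate 1 the first probe was not above background, while the second was brighter relative to the array than elsewhere, by 0.75 on the log2 brightness scale. The first was negative on both Cy5 arrays that detected it, at -0.079 and -0.17, and positive on both such Cy3 arrays, at 0.032 and 0.0030.

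Over all members, 0 of 10 genes passed an adjusted p of 0.05 in limma's fit of 3 replicates, where the share over all probes was 0%. At an unadjusted p under 0.05, Vim, Stmn2, Stmn1 and Ina were higher and 0 members were lower. That is 4 of 11 probes, where 6.23% of all probes were higher and 5.56% lower. The 11 include the probes of Map2, Nefl and Dcx, for which no ratio is given. Among probes detected on all 6 arrays, in one channel or the other, 12.0% were higher at this level, against 4 of the 6 member probes so detected. The members were chosen with earlier results of these data known, so this contrast is a description and not a test. The count of 4 depended on the processing. With plain background subtraction the unadjusted limma p was 0.054 for Vim, 0.11 for Stmn2, 0.17 for Ina and 0.20 for Stmn1. With median centring it was 0.026 for Vim, 0.15 for Stmn2, 0.21 for Ina and 0.65 for Stmn1. The count of lower members changed too. With median centring the second Mapt probe was lower, at -0.085 with an unadjusted limma p of 0.040. Map2 was lower at this level with plain background subtraction, but its spots were not above background on any array. In the replicate block fit 1.05% of all probes passed an adjusted p of 0.05 and 0 members did. A ratio above 0 on 6 of 6 arrays was seen in 4.55% of detected probes and, among the members, in Vim. The 10 genes each lie on a chromosome of their own and share no probe, but all ratios come from the same 3 pools and 1 control pool and are not independent of each other.

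**Figure D3:**
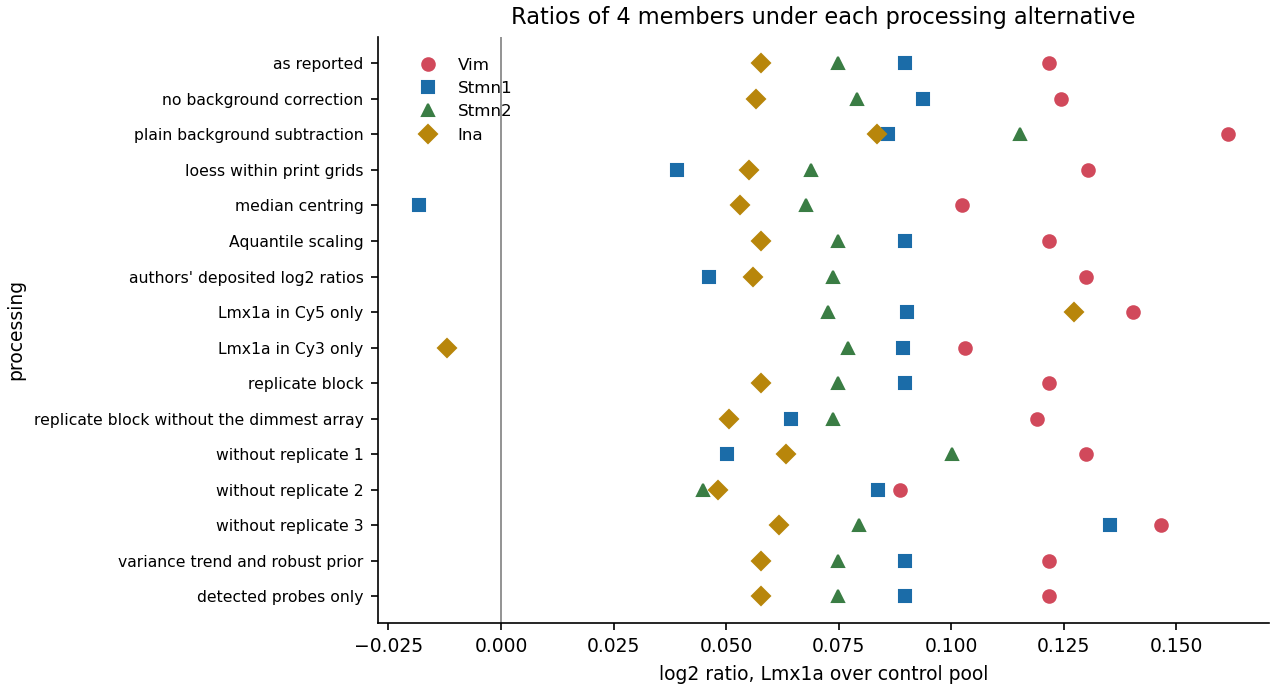
Log2 ratio of Lmx1a over control on the horizontal axis for Vim, Stmn1, Stmn2 and Ina, with 1 row for each way of processing the arrays. Vim stays between 0.089 and 0.16 in all rows, Stmn1 falls to -0.018 with median centring, and Ina falls to -0.012 with the Cy3 arrays alone.

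The wider cytoskeleton was read from 6 lists of related genes, each gene by its brightest probe. Over all of these lists 0 genes passed an adjusted p of 0.05 in limma's fit, and the values below are those of each list's top 2 genes by unadjusted p. Over all probes the median log2 ratio was 0.00063 and 51.0% of ratios were above 0, and over probes detected on all arrays the median was 0.0025 and 52.6% were above 0. Counts at the unadjusted level below are of genes with p under 0.05. They are to be read against the 6.23% of all probes that were higher and 5.56% that were lower, and the 12.0% of detected probes that were higher. The share of detected probes that were lower was not computed, so counts of lower genes have only the share of all probes beside them. Counts and medians of a list take in its genes that were not detected on every array.

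Of the 17 other tubulin genes, 15 had positive ratios and the median was 0.018, with 3 higher and 1 lower at the unadjusted level. With Lmx1a RNA in Cy5 alone 11 were positive, and with median centring 13. Without replicate 2 the count was 12 and the median 0.0087, while the median was 0.029 without replicate 1 and 0.029 without replicate 3. Tubb4b, a widely expressed beta-tubulin, was at 0.13 ± 0.080 (SD, n = 3), with 0.011 in the Cy5 orientation, 0.25 in Cy3 and 0.024 with median centring. Its second probe gave 0.069. Tuba4a, an alpha-tubulin, was at -0.090 ± 0.062 (SD, n = 3) and negative on 6 of 6 arrays. Probes of these near-identical genes can cross-hybridise.

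Microtubule-associated and plus-end proteins had 17 of 24 genes above 0 and a median of 0.024, with 6 higher and 0 lower at the unadjusted level. The median was 0.039 without replicate 1, 0.015 without replicate 2 and 0.0074 with Lmx1a RNA in Cy3 alone. Map1b, encoding a microtubule protein of growing axons, had the highest ratio among these lists. Its replicates gave 0.12, 0.33 and 0.22, and its mean was 0.22 ± 0.11 (SD, n = 3). It was positive on 6 of 6 arrays, with 0.23 in the Cy5 orientation and 0.22 in Cy3. The limma adjusted p of Map1b was 0.136, and in the replicate block fit it was 0.0310. Dclk1, encoding a kinase related to doublecortin, was at 0.093 ± 0.033 (SD, n = 3) on 6 of 6 arrays. Its other probes gave 0.0010 and 0.040, and the brightest gave 0.15 with median centring and 0.18 with plain subtraction. With plain subtraction the unadjusted limma p of the brightest was 0.058.

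Among the remaining stathmins, the collapsin response mediators and the tubulin cofactors and modifying enzymes, 7 of 19 genes were above 0 and the median was -0.0052, with 2 higher and 2 lower at that level. Without replicate 1 there were 9 above 0 and the median was -0.011. Tbca, a cofactor of beta-tubulin folding, was at -0.14 ± 0.054 (SD, n = 3), negative on 6 of 6 arrays, with -0.19 in the Cy5 orientation and -0.094 in Cy3. Dpysl3, a collapsin response mediator of growth cones, was at 0.081 ± 0.026 (SD, n = 3) and positive on 6 of 6 arrays. It was at 0.16 after plain subtraction, with an unadjusted limma p of 0.052, and its ratio with median centring was also 0.052.

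Of the other intermediate filament genes 4 of 11 were above 0, with a median of -0.016 and with 0 higher and 3 lower at that level. Of these 11 genes 6 were detected on all arrays, 3 of them above 0, and 2 were detected on no array. Without replicate 2 the median was -0.0099. Prph, encoding the neuronal filament protein peripherin, was at -0.10 ± 0.071 (SD, n = 3), with -0.031 in the Cy5 orientation and -0.18 in Cy3. Nefh, encoding neurofilament heavy, was at -0.087 ± 0.070 (SD, n = 3), with -0.0074 in Cy5 and -0.17 in Cy3, and with -0.051 without replicate 2. Each was negative on 5 of 6 arrays.

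**Figure D4:**
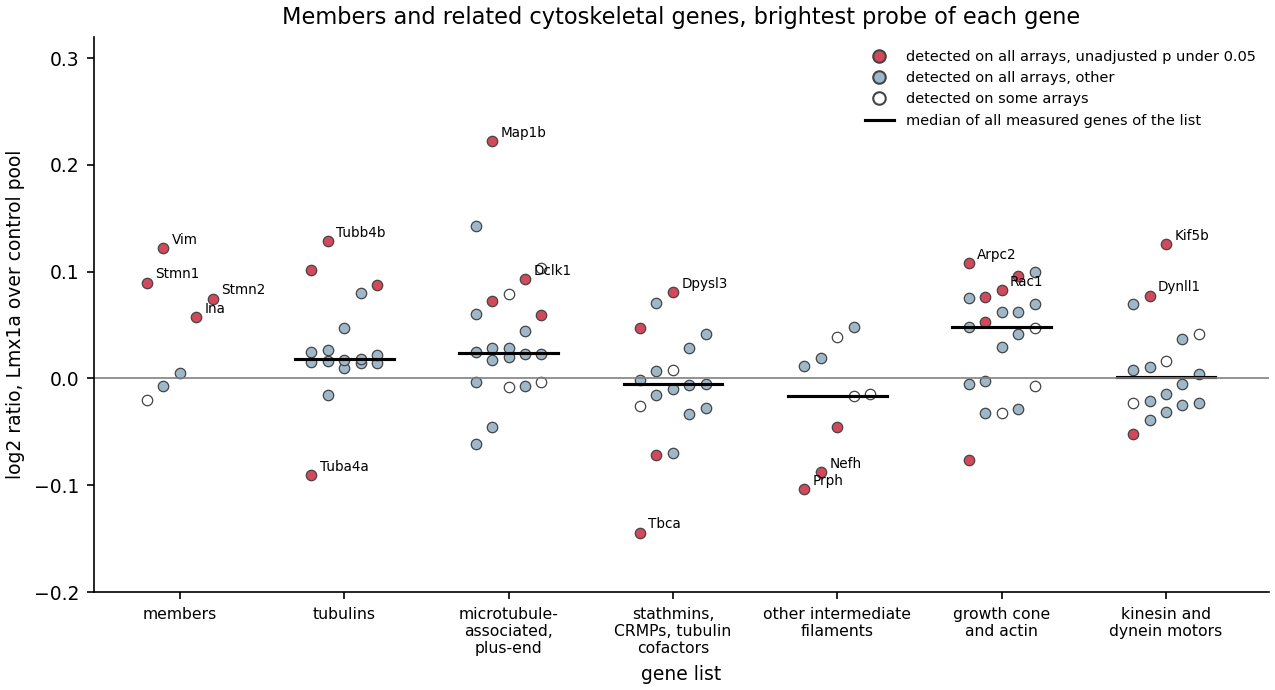
Log2 ratio of Lmx1a over control for the members and for 6 lists of related genes, 1 point per gene detected on some or all arrays, in red where the gene was detected on all arrays with an unadjusted p under 0.05, open where it was detected on some arrays, and black lines for the median of all measured genes of a list. Map1b at 0.22 is the highest point and Tbca at -0.14 the lowest.

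Of the growth cone and actin genes 14 of 21 were above 0, their median was 0.048, and 5 were higher and 1 lower at that level. The median was 0.027 without replicate 1 and 0.028 without replicate 2. In the Cy5 orientation 17 were above 0 with a median of 0.074, and in Cy3 10 were above 0 with a median of -0.0010. Arpc2, a subunit of the actin-nucleating ARP complex, was at 0.11 ± 0.062 (SD, n = 3), with 0.016 in Cy5 and 0.20 in Cy3. Median centring gave 0.045. Its second probe gave 0.12. Rac1, a GTPase of actin protrusion, was at 0.083 ± 0.034 (SD, n = 3) on 6 of 6 arrays. Its Cy5 mean was 0.13 and its Cy3 mean 0.037.

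Of the transport motor genes 10 of 20 were above 0, their median was 0.0016, and 2 were higher and 1 lower at that level. The sign of this median was not stable, at -0.0059 without replicate 1 and -0.0019 without replicate 2. Kif5b, encoding the ubiquitous kinesin heavy chain, was at 0.13 ± 0.057 (SD, n = 3), with 0.20 in the Cy5 orientation and 0.051 in Cy3. The limma adjusted p of Kif5b was 0.164, and in the replicate block fit it was 0.0492. Without the dimmest array that adjusted p was 0.112. Dynll1, a dynein light chain, was at 0.078 ± 0.034 (SD, n = 3), with 0.020 under median centring and 0.031 for its second probe.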

How the data were processed

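Arrays with a Cy3 and a Cy5 channel were read from the deposited scanner files, which per the file headers hold spot and background intensity in each channel, not normalized. The authors' deposited table of log2 ratios, 1 column per array, served as an alternative. Its columns already read Lmx1a over control on every array, with correlations of 0.922 to 0.962 and slopes of 0.946 to 0.982 across probes against the ratios computed here, so the scale is log2. Their medians were 0.0037, 0.0042 and 0.0040 for Lmx1a RNA in Cy5 and -0.0014, -0.0028 and -0.0034 in Cy3 (replicates 1, 2 and 3), and how they were centred stays unknown. Scanner, image software and the authors' normalization are not stated in the labels or headers. In limma 3.58.1 (R 4.3.3) spot means were corrected with normexp (offset 50) and normalized by loess within each array (span 0.3), with 3223 control spots at weight 0 and then left out. Each probe had 1 spot. Ratios were turned to Lmx1a over control by the labelled dyes. Arrays with the same replicate number hold the same 2 RNA extracts, per the labels, and were averaged. The mean of 3 replicates was tested against 0 with eBayes and adjusted by Benjamini-Hochberg over 31769 probes at 0.05. The fit was also run on simulated ratios, with noise drawn separately for each array and none shared within a pool. That run does not measure power at the ratios found here. Of the probes, 26000 carried 1 gene symbol in the platform annotation and 5769 none, and 2865 symbols were updated through RefSeq's GRCm38.p6 gene table. Promoters come from the same assembly. No counts underlie array values, so the number of arrays limits precision.

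The members, the 11 lists of 158 other genes and the alternatives were chosen with earlier results of these data known. The text names all members, Lmx1a, from each of the first 6 lists the 2 genes with the smallest p where none passed 0.05, and Th and Slc18a2.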

Additional observations from a re-analysis of the deposited data

Results flagged for a closer look

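Vim had a log2 ratio of 0.257 in replicate 2 with Lmx1a RNA in Cy5, while the other 5 arrays lay between 0.061 and 0.12. Its gap to the nearest array was 0.710 of the whole range, above Dixon's 95% critical value for 6 arrays. The transfected gene Lmx1a had a log2 ratio of 0.928 in replicate 1 with Lmx1a RNA in Cy3, the dimmest array, against 2.50 to 3.19 on the others, a gap of 0.692 of the range. The control spot of Lmx1a was not above background on that array, at a net brightness of 6.66 units, so its ratio there is not a measured fold but depends on the offset of 50. This critical value assumes 6 independent values. The 6 arrays are 2 for each of 3 pools against 1 control pool, so its 95% level does not hold here. The threshold also marks some groups by chance alone.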

How the results depend on the processing

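Members past an adjusted p of 0.05 numbered 0 under all 15 alternatives. Over all probes limma called 0, with 3743 at an unadjusted p under 0.05, against 49 with median centring, 993 with Lmx1a RNA in Cy5 alone, 215 in Cy3 alone, 333 with the replicate block and 91 with that block without the dimmest array. Leaving out each replicate in turn gave 0 to 1. Vim kept its sign under all 15, and so did Stmn2. Among members that crossed 0, Tubb3 was 0.0009 in Cy3 alone and 0.0021 with the block without the dimmest array. Stmn1 was -0.0183 with median centring, and Ina was -0.0119 in Cy3 alone. With median centring the median ratio was itself -0.0186 over all probes and 0.0020 over probes detected on all arrays. Gap43 was -0.007 with plain subtraction, -0.0003 with print grids, -0.0124 with median centring and -0.0177 in Cy3 alone, and ranged from -0.0338 to 0.0286 with a replicate left out. The first Mapt probe was 0.0439 with plain subtraction and 0.034 in Cy3 alone, with a leave-out range of -0.0534 to 0.0116, and the second ranged from -0.0355 to 0.0003. Th was -0.018 with median centring and -0.1081 in Cy5 alone, with a leave-out range of -0.0429 to 0.0986. The cause of these shifts was not tested. The replicate block took 1.05% of probes past the threshold, and Map1b, Kif5b and Slc18a2 passed with it at adjusted p of 0.0310, 0.0492 and 0.0121. Map2, Nefl and Dcx are limited by signal over background.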

Other observations

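Of the 12 dopaminergic marker genes 6 had ratios above 0 and the median was 0.0027, and 4 were not above background on any array. The list split by dye. In the Cy5 orientation 2 genes were above 0 with a median of -0.025, and in Cy3 10 were above 0 with a median of 0.046. Unadjusted p was under 0.05 for 2 of the 12, Slc18a2 and Ddc, both of them with positive ratios. Over all probes 6.23% were higher at this level. Both genes were among the 5 of this list detected on all arrays, and 12.0% of probes so detected were higher. Slc18a2, encoding the vesicular monoamine transporter, was at 0.20 ± 0.053 (SD, n = 3) and above 0 on every one of the 6 arrays. It was at 0.27 in the Cy5 orientation and 0.13 in Cy3. Its limma adjusted p was 0.0799. Ddc, encoding the decarboxylase of dopamine synthesis and named after its values were seen, was at 0.084 ± 0.034 (SD, n = 3) with a limma adjusted p of 0.205. Th, encoding tyrosine hydroxylase, was at 0.0067 ± 0.16 (SD, n = 3). The difference between these genes was not tested.

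The brightness of the members relative to each array's median was set between the arrays of replicate 1 and the other 4. Ina was lower on the arrays of replicate 1 by a log2 difference of -1.61 and Stmn2 by -0.67, while Vim was higher, at 0.65. The probes of Map2, Nefl and Dcx, not above background on any array, were also higher, at 0.53, 0.51 and 0.53. Over 14256 detected probes the median of this difference was 0.12, with 5th and 95th percentiles of -1.29 and 0.78, so Vim lay within that range. Of them 377, or 2.64%, were as low as Ina or lower. Both arrays of replicate 1 lay below all others at Ina and Stmn2, as they did at 14.2% of detected probes.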
